A study of Homo sapiens with 38 samples.

Results

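Transcript levels after transfection with the VPS4B duplex siVPS4B#1 were compared with those after transfection with the non-targeting duplex siCTRL#1 in HCT116 cells. The comparison took 9 of the 38 libraries of the study, namely the 4 labelled siVPS4B#1 (replicates 1 to 4) and the 5 labelled siCTRL#1 (replicates 1 to 5), chosen by their labels alone. All 12627 listed genes were tested in both directions, and the result was read as the response to this duplex alone. HCT116 is a human colorectal carcinoma line grown in culture, and the deposited labels give the replicates as biological replicates.

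The study silenced the 2 paralogs VPS4A and VPS4B singly and together by RNA interference. Cells with 1 on-target duplex received 30 nM of it together with 30 nM of siCTRL#1, cells of the siCTRL#1 condition received 60 nM of siCTRL#1, and RNA was taken 72 h later. The total dose of siRNA and the carrier were therefore shared by the 2 compared conditions. Other conditions were used for context only: non-transfected cells (NT), cells with another non-targeting duplex (siCTRL#2, exact dose not given in the sources used here), siVPS4A#2 and siVPS4B#2 (30 nM each with 30 nM of siCTRL#1), and siVPS4A+B#1, in which 30 nM of siVPS4B#1 was given with 30 nM of siVPS4A#2. Levels are also given for siVPS4A#1 (30 nM with 30 nM of siCTRL#1) and for siVPS4A+B#2 (30 nM each of siVPS4A#1 and siVPS4B#2), which did not receive siVPS4B#1.

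VPS4A and VPS4B are AAA ATPases that take apart filaments of the endosomal sorting complex required for transport III (ESCRT-III). These filaments close membrane necks during the sorting of receptors into multivesicular endosomes, the repair of membranes, the resealing of the nuclear envelope and the final separation of daughter cells. What a cell transcribes when 1 of the 2 paralogs is low was examined here for 1 duplex.

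The 4 siVPS4B#1 libraries held 6618659, 9916452, 7519435 and 6309019 reads, and the 5 siCTRL#1 libraries 5870823, 7561496, 5801458, 6757621 and 10029811. Levels are given below in RPM, the reads per 1000000 after TMM scaling, and 3 reads, taken as the floor, were at most 0.517 RPM in these 9 libraries. Differences are log2 fold changes of RPM after adding 1, which understates the changes of genes with few reads. P-values come from limma with Benjamini-Hochberg adjustment across the 12627 genes. Calls needed a fold change of 1.5 or more together with an adjusted p under 0.05. All floors and intervals cover counting error only and leave out the spread between libraries. Reads amplified by PCR are not independent molecules, so even the counting error may be understated. In bulk RNA, fewer cells with a transcript and less transcript per cell cannot be told apart.

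The label of the cell line was checked against transcripts of epithelial and of other cells. Of 13 epithelial markers, 8 were among the listed genes and 7 had at least 10 RPM in siCTRL#1 cells, the most abundant being the keratin KRT19 with a mean of 2469. Together the 8 had 5453 RPM in siCTRL#1 cells and 7195 in siVPS4B#1 cells. Of 16 markers of blood, endothelial, stromal, erythroid and liver cells, only 5 were listed, with sums of 47.8 and 65.4, led by the collagen COL1A1 at 25.8. The 9 libraries therefore carried an epithelial profile in both conditions. As a list, the epithelial genes were little changed: 1 of the 8 measured members were higher and 0 lower, with a median of 0.02, against 5.02% higher and 6.41% lower among all genes. The 1 was KRT19, with 3914, 4061, 4461 and 3879 RPM against 1989, 2054, 3308, 2543 and 2450.0 in siCTRL#1 (0.70, adjusted p 0.00567 by limma), and without replicate 1 it was not called. Of the 5 markers of other cells, 1 was higher and 0 lower, with a median of 0.40: the endothelial adhesion gene PECAM1 rose from near the floor, with 1.51, 1.74, 1.60 and 0.770 against 0.335, 0.239, 0.169, 0.431 and 0.377 (0.86, adjusted p 0.00262). CD68 had a larger change but was not called, with means of 8.28 RPM in siCTRL#1 and 21.7 in siVPS4B#1 cells (1.25, adjusted p 0.0855 by limma).

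One pair of control libraries stood apart. Replicates 1 and 4 of siCTRL#1 differed with a standard deviation of their log2 ratios of 0.182, where the other pairs of siCTRL#1 libraries had 0.227 to 0.418. Their median chi-square was 1.92 times that of sampling noise alone, and that of the other pairs 4.03 to 10.9 times. The next closest pair was replicates 2 and 5, with 0.227 and 4.03 times, where the remaining pairs had at least 0.353 and 6.48 times. Repeat libraries of 1 RNA could also exceed sampling noise, so whether replicates 1 and 4 are independent samples cannot be told. They were kept as their labels give them. Outside the 9, the library labelled siVPS4A#1 replicate 2 held only 669257 reads and does not behave as its label says. Its VPS4B level was 1.62 RPM (1 read) where the other 4 libraries of that label had 21.6 to 32.04, and its NT5E level was 272 where they had 43.1 to 57.7. It enters the fit through the variance and the replicate block, and without it 709 genes were higher and 926 lower with siVPS4B#1, where 634 and 810 were called with it. Results that leaned on these libraries are given below with and without siCTRL#1 replicate 4.

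The target of the duplex was nearly absent. VPS4B (RefSeq NM_004869, chr18:61056423-61089716, minus strand) had 0.757, 0.677, 0.134 and 0.154 RPM in the 4 siVPS4B#1 libraries and 23.8, 20.1, 16.4, 18.1 and 24.5 in the 5 siCTRL#1 libraries. The former rest on 1 to 7 reads per library and 14 in all, and the latter on 793 reads, so that 2.16% of the control level was left (95% interval 1.18 to 3.65% by the exact Clopper-Pearson method). No library of the one condition came near any of the other, and an exact permutation test gave p = 0.0159, the smallest value that 4 and 5 libraries allow. By limma the log2 fold change was -3.81 (standard error 0.36, adjusted p 3.3e-09), a value that the added 1 draws toward 0. The paralog stayed at its level. VPS4A (RefSeq NM_013245, chr16:69345253-69360842, plus strand) had 187, 188, 214 and 229 RPM against 197, 172, 179, 191 and 206, 2 ranges that overlap (log2 fold change 0.05, standard error 0.29, adjusted p 0.933 by limma, exact permutation p = 0.254). Cells with this duplex thus had abundant VPS4A mRNA and almost no VPS4B mRNA. Protein was not analysed here.

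Beyond the target, the transcriptome changed broadly and in both directions by moderate amounts. limma called 634 genes higher (5.02% of 12627) and 810 lower (6.41%), with median log2 fold changes of 0.78 and -0.84 among them. Over all genes the median was 0.01 and the median of the absolute values 0.23, so most transcripts hardly moved. Among the higher genes 125 changed at least 2-fold and only 3 at least 4-fold, and among the lower genes 248 and 8. In 525 of the higher and 643 of the lower genes, every siVPS4B#1 library lay outside the range of the siCTRL#1 libraries. Such separation without a test was found for 1114 genes above (8.82% of all) and 1167 below (9.24%).

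The called genes were spread over levels and over the genome. Of 4 equal groups of genes by level, the lowest held the fewest calls, with 3.29% higher and 3.10% lower, and the other 3 had 5.45 to 5.67% higher and 6.97 to 8.11% lower. By chromosome, the share of lower genes ranged from 3.45% on X to 11.9% on chromosome 13, and that of higher genes from 2.80% on chromosome 21 to 7.35% on chromosome 17. Chromosome 18, which carries VPS4B, had 6 higher and 12 lower genes of 176 and so no marked loss of transcripts. Without siCTRL#1 replicate 4 the counts were 576 and 758, and with any 1 replicate number left out 438 to 766 and 585 to 952.

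VGF rose most. The gene, which encodes the precursor of secreted neuroendocrine peptides (RefSeq NM_003378, chr7:100805790-100808850, minus strand), had 220.3, 234, 216 and 523 RPM with siVPS4B#1 and 19.6, 17.3, 16.2, 19.5 and 27.1 with siCTRL#1. It went from a low to a high level in all 4 libraries, without overlap, and the highest value was in replicate 4 (log2 fold change 3.82, standard error 0.28, adjusted p 9.85e-12 by limma). The lysosomal and secreted hyaluronidase HYAL1 had 61.8, 52.5, 51.5 and 71.9 against 13.2, 9.09, 13.5, 14.4 and 10.3 (2.20, adjusted p 7.65e-07). ECM1, an extracellular matrix glycoprotein, had 21.5, 24.5, 31.2 and 22.2 against 4.68, 5.74, 9.46, 4.16 and 6.87 (1.89, adjusted p 2.42e-06). Both went from low to moderate levels, again without overlap. NT5E, the surface enzyme CD73 that makes adenosine from AMP, climbed from 33.3, 23.8, 26.02, 31.3 and 30.2 in siCTRL#1 to 74.5, 91.5, 130.5 and 164 (1.83, adjusted p 8.18e-05). The decoy receptor TNFRSF6B, which binds Fas ligand, had 163, 141, 133 and 229.8 against 45.8, 33.1, 35.3, 35.5 and 59.2 (2.11, adjusted p 8.61e-07). These 5 genes, taken from the 15 largest increases, were separated between the conditions in every library.

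Several abundant transcripts rose too. ITGB4, the integrin beta 4 chain of hemidesmosomes, went from 529, 337, 347, 462 and 362 RPM to 1422, 1228, 1263 and 1658 (1.80, adjusted p 2.09e-08 by limma). The Hippo pathway coactivator WWTR1 (TAZ, RefSeq NM_001168280, chr3:149235022-149454501, minus strand) had 296, 269, 297 and 297 against 103, 95.6, 83.3, 95.3 and 81.2 (log2 fold change 1.65, standard error 0.14, adjusted p 3e-10). WWTR1 mRNA thus about tripled, with little spread on either side. MT1E, a metallothionein that binds zinc and copper, had 1949, 1657, 2041 and 2283 against 783, 472, 583, 794 and 685 (1.60, adjusted p 8.81e-07). NES, the intermediate filament protein nestin, had 173, 206, 207 and 193 against 60.9, 88.1, 139, 63.2 and 79.8 (1.24, adjusted p 9.98e-06). At lower levels rose SECTM1, a secreted ligand of T cells (1.97, adjusted p 0.000282), SLC36A1, a lysosomal amino acid transporter (1.76, adjusted p 2.09e-08), and DISP2, a Dispatched-family transporter (1.54, adjusted p 6.5e-08). CLIC3, an intracellular chloride channel protein (1.74, adjusted p 2.34e-07), and the myosin linker MLPH (1.55, adjusted p 1.83e-05) rose too. The orphan receptor GPR20 (1.68, adjusted p 1.07e-05) and the cytidine deaminase APOBEC3G (1.64, adjusted p 3.5e-06) completed the 15 largest increases without overlap at 5 RPM or more. None of the 15 lost its call in any of the 15 alternative fits.

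Among the genes that fell, UBE2S came next to VPS4B itself. UBE2S, the ubiquitin-conjugating enzyme that lengthens ubiquitin chains for the anaphase-promoting complex (RefSeq NM_014501, chr19:55911113-55919156, minus strand), had 101, 76.3, 119 and 73.9 RPM with siVPS4B#1 and 515, 444, 743, 511 and 491 with siCTRL#1. A high level became a moderate one in every library (log2 fold change -2.57, standard error 0.18, adjusted p 4.34e-12 by limma). The kinesin light chain KLC2, which links kinesin-1 to cargo, fell from 89.8, 117, 97.7, 89.1 and 124 to 20.1, 27.3, 19.4 and 22.6 (-2.01, adjusted p 8.17e-06). TRIR, a telomerase RNA component interacting RNase, fell from 288, 251, 282, 285 and 254 to 73.7, 82.5, 93.1 and 88.9 (-1.66, adjusted p 2.13e-08). These 2 changes were sharp as well, with little spread on either side. STRN4, a striatin subunit of phosphatase 2A (-1.67, adjusted p 1.7e-08), GANAB, the glucosidase II alpha chain (-1.68, adjusted p 1.43e-05), CHKA, a choline kinase (-1.66, adjusted p 0.00143), and MTFMT, the mitochondrial methionyl-tRNA formyltransferase (-1.64, adjusted p 2.09e-08), fell without overlap too. What joins these genes was not tested, and no sequence of the duplex was among the sources with which a match to their transcripts could be searched.

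Cells with siVPS4B#1 had less mRNA of the enzymes that copy and repair DNA. The summed level of 49 replication and homologous recombination genes was 3516, 3326, 4221, 3499 and 3659 RPM in the siCTRL#1 libraries and 1690.0, 1902, 2447 and 1833 with siVPS4B#1, a drop in every library without overlap. Nearly the whole list took part. By limma, 0 of the 49 measured members were higher and 42 lower (5.02% and 6.41% of all genes), with a median log2 fold change of -0.93. Called or not, 42 members lay below the range of all control libraries, against 9.24% of all genes. The recombination ATPase RAD54L (RefSeq NM_001142548, chr1:46712133-46744152, plus strand) had 8.93, 7.73, 8.28 and 3.70 against 22.6, 20.6, 21.6, 23.5 and 17.98 (-1.63, adjusted p 7.96e-07). FANCD2, the Fanconi anemia protein that guards stalled forks (RefSeq NM_033084, chr3:10068054-10143616, plus strand), had 5.45, 4.06, 6.14 and 5.39 against 14.6, 17.8, 20.3, 15.1 and 16.4 (-1.58, adjusted p 2.09e-08). Both started low and were lower in every library. The helicase subunit MCM2 (-1.37, adjusted p 5.2e-05), the origin recognition subunit ORC6 (-1.26, adjusted p 1.7e-06) and the licensing factor CDT1 (-1.21, adjusted p 1.08e-05) fell alike.

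Of single genes that act in DNA repair, RBBP8, the end-resection factor CtIP and a member of the same list, had 3.94, 5.51, 4.41 and 4.77 RPM against 26.6, 21.1, 19.8, 23.8 and 18.6 in siCTRL#1 (log2 fold change -2.09, standard error 0.18, adjusted p 5.04e-10 by limma). UNG, the uracil-DNA glycosylase, which was not on the list, had 24.5, 21.7, 18.7 and 20.9 against 86.6, 92.2, 95.3, 96.4 and 85.5 (log2 fold change -2.03, standard error 0.15, adjusted p 1.11e-11). Each lost most of its mRNA in each library, RBBP8 from a low level and UNG from a moderate one. The histone variant H2AX, which marks broken DNA when phosphorylated, had 78.3, 58.2, 77.3 and 44.2 against 248, 221, 278, 245 and 244 (log2 fold change -1.99, standard error 0.19, adjusted p 2.85e-09). It too was lower in all libraries without overlap.

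Promoters of this group were searched for 2 spellings of the E2F element, TTTCCCGC and GGCGGGAA, on both strands of the 300 bases of RefSeq GRCh38.p14 that the promoter table gives. GGCGGGAA was found in 3.16% of all 35116 promoters, in 6.40% of those of tested genes, in 12.5% of those of lower genes and in 4.51% of those of higher genes. In the replication list 14 of 41 promoters had it. TTTCCCGC was found in 1.63%, 3.34%, 6.92% and 1.23% of these promoters, and in 11 of 41. RAD54L (chr1:46247438-46247737, plus strand) and FANCD2 (chr3:10026187-10026486, plus strand) are shown because they changed most among members with a match. In FANCD2 the 2 spellings overlap, 1 base apart, so its 2 matches are 1 stretch. A match is a description of the sequence, not a site or a cause.
RAD54L: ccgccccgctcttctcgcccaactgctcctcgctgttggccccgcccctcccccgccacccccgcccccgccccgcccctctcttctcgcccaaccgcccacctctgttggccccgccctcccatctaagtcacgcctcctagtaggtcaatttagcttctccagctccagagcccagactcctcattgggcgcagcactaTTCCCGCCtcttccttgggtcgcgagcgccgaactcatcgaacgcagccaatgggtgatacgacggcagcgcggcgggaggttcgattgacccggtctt
FANCD2: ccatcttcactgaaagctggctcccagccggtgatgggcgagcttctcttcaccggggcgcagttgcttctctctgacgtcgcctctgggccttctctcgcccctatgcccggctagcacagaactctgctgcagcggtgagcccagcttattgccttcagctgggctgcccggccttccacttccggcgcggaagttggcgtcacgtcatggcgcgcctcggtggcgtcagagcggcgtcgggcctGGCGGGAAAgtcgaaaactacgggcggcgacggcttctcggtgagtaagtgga

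Genes of chromosome segregation were lower as well. The transcription factor FOXM1, which drives genes of the G2 phase and mitosis, had 9.24, 21.2, 16.3 and 13.6 RPM with siVPS4B#1 and 38.6, 61.8, 58.5, 41.8 and 62.6 with siCTRL#1 (log2 fold change -1.80, standard error 0.21, adjusted p 2.78e-07 by limma). CENPF, a kinetochore protein (RefSeq NM_016343, chr1:214776528-214837917, plus strand), had 92.2, 93.8, 115 and 86.1 against 236, 228, 274, 244 and 212 (-1.40, adjusted p 3.23e-07). The microtubule depolymerase KIF2C had 26.04, 22.7, 28.4 and 19.1 against 65.1, 75.1, 61.7, 73.5 and 62.8 (-1.61, adjusted p 1.41e-06). The mitotic kinase PLK1 (RefSeq NM_005030, chr16:23688977-23701688, plus strand) had 39.5, 70.4, 69.03 and 51.9 against 102, 159, 176, 100.5 and 197 (-1.29, adjusted p 0.000427). All 4 were lower in every siVPS4B#1 library than in any siCTRL#1 library. KIF20A, a kinesin of the central spindle (-1.46, adjusted p 1.55e-05), and the topoisomerase TOP2A (-1.25, adjusted p 2.92e-05) were likewise separated, while CDC20, the activator of the anaphase-promoting complex, fell with overlapping ranges (-1.26, adjusted p 0.000151).

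Over the mitosis list, 0 of the 34 measured members were higher and 30 lower (5.02% and 6.41% of all genes), with a median of -1.06 by limma. Below the range of all control libraries lay 29 members, against 9.24% of all genes. Its summed level was 2757, 3108, 3328, 2780.2 and 3386 RPM in siCTRL#1 and 1318, 1509.5, 1912 and 1407 in siVPS4B#1 libraries. Each siVPS4B#1 library thus had less mitotic mRNA than any control library. The cell cycle homology element spelled TTTGAA was searched on both strands. It was found in 15.2% of all promoters, 13.5% of those of tested genes, 23.5% of those of lower genes and 10.2% of those of higher genes, and in 22 of 29 promoters of the mitosis list. The CCAAT box was found in 34.6%, 43.5%, 56.2% and 40.4%, and in 23 of 29. PLK1 (chr16:23678639-23678938, plus strand, RefSeq GRCh38.p14) is shown as a well-known member, and its TTTGAA match starts at base 222. Such a match describes the sequence and shows no binding.
PLK1: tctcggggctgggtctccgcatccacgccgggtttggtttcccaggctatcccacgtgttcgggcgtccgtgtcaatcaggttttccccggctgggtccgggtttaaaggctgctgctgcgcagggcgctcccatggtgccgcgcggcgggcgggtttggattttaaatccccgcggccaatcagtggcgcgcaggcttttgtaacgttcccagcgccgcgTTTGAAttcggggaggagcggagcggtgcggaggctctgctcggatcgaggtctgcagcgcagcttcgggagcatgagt

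Replication-dependent histone genes followed. Of their 39 measured members 1 was higher (5.02% of all genes) and 32 lower (6.41%) by limma, with a median log2 fold change of -1.05. Their summed level was 17518, 12395, 19833, 16618 and 13338 RPM in siCTRL#1 and 7967, 6763, 9953 and 5907 in siVPS4B#1 libraries. Of the members 21 lay below and 1 above the range of the control libraries, against 9.24% and 8.82% of all genes. H2AC14, an H2A gene, had 100.4, 108, 152 and 97.9 against 277, 265, 400.3, 282 and 267 (-1.48, adjusted p 3.5e-06). H2BC14, an H2B gene, had 21.8, 27.6, 40.99 and 18.2 against 86.3, 91.6, 137, 83.2 and 104 (-1.92, adjusted p 1.67e-05), and H4C8, an H4 gene, 23.2, 25.2, 42.3 and 17.2 against 92.7, 61.2, 121, 87.98 and 66.2 (-1.80, adjusted p 4.8e-06). Each of these 3 was lower in every siVPS4B#1 library than in any siCTRL#1 library. H4C4 (-1.66, adjusted p 1.26e-05) and H2BC7 (-1.34, adjusted p 3.67e-05) fell without overlap, and H4C1 fell with it (-1.53, adjusted p 2.83e-05). The CCAAT box lay in 31 of 35 promoters of the list. Counts of single histone genes are uncertain because their sequences are nearly identical, and the sum is safer.

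Targets of ATF4, the transcription factor of the amino acid response, were lower as a group but varied between the libraries of both conditions. Summed, they had 12028, 6787, 5662, 11742 and 5831 RPM in siCTRL#1 replicates 1 to 5 and 7557, 3919.9, 4154 and 3448 in siVPS4B#1 replicates 1 to 4. Replicates 1 and 4 of siCTRL#1 had about 2 times the level of the other controls, and replicate 1 of siVPS4B#1 was the highest of its condition. Compared by replicate number, each siVPS4B#1 library lay below its control, with medians of -0.80, -0.92, -0.60 and -1.92. Of the 33 members 28 were lower in all 4 such pairs, against 20.2% of all genes, and 6 of the 33 were below the range of all controls, again a larger share than the 9.24% of all genes. Libraries numbered 4 showed no pairing (r = -0.0814), so that pair is one by number alone, and replicate 4 with siVPS4B#1 was closer to siCTRL#1 replicate 5 (r = 0.205). limma, which holds the replicate number as a block, called 0 of 33 higher (5.02% of all genes) and 24 lower (6.41%), with a median of -1.02. Without siCTRL#1 replicate 4 it called 20 (median -0.81), without all of replicate 4 it called 14 (median -0.72), and without the block 20. Over the fits leaving out 1 replicate number the count was 14 to 25.

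Single ATF4 targets had the same layout. Asparagine synthetase ASNS (RefSeq NM_001673, chr7:97480989-97501854, minus strand) had 112, 33.2, 32.6 and 29.6 RPM with siVPS4B#1 and 366, 143, 84.1, 319 and 121 with siCTRL#1 (log2 fold change -2.17, standard error 0.28, adjusted p 1.09e-06 by limma). Replicate 1 with the duplex overlapped the lower controls, and the other 3 lay far below all of them. Without siCTRL#1 replicate 4 the log2 fold change was -1.90. CHAC1, which degrades glutathione (RefSeq NM_024111, chr15:41245160-41248710, plus strand), had 205, 25.9, 18.6 and 16.3 against 332, 133, 64.04, 294 and 66.7 (-2.17, adjusted p 0.000148, and -1.75 without siCTRL#1 replicate 4). NUPR1, a stress-induced chromatin protein, had 6.51, 0.870, 0.534 and 0.616 against 30.8, 8.85, 3.04, 24.7 and 5.93 (-2.33, adjusted p 1.11e-05, and -1.92). All 3 fell strongly in replicates 2 to 4 and from the highest starting level in replicate 1. The gluconeogenic enzyme PCK2 (-1.83, adjusted p 3.13e-05), the cystine transporter SLC7A11 (-1.80, adjusted p 0.000107) and the serine synthesis enzyme PHGDH (-1.48, adjusted p 5.05e-05) fell with overlap as well. NIBAN1, a stress-response protein, fell without it (-1.55, adjusted p 0.000471).

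The ATF4 composite element spelled TGATGNAA, where N is any base, was searched on both strands. It was found in 3.62% of all 35116 promoters, 2.67% of those of tested genes, 5.54% of those of lower genes and 1.23% of those of higher genes, and in 9 of 26 promoters of the list. ASNS (chr7:97872359-97872658, minus strand) and CHAC1 (chr15:40953221-40953520, plus strand, match on the other strand, read TTGCATCA) are shown from RefSeq GRCh38.p14 as the members with the largest changes among those with a match. The match is a description and does not show a site in use or a cause.
ASNS: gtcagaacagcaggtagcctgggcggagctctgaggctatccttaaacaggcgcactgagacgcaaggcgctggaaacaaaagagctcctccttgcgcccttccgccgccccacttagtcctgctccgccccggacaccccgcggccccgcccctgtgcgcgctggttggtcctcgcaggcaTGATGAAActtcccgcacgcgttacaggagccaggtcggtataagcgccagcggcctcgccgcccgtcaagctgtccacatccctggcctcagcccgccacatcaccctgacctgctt
CHAC1: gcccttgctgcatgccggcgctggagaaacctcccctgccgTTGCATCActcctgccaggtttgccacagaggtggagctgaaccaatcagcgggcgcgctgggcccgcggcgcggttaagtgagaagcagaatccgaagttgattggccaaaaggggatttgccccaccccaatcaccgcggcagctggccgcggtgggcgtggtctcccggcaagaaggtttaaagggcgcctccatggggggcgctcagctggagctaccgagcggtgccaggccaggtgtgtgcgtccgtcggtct

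Other genes of amino acid use and of protein folding had fewer calls. Of 20 cytosolic aminoacyl-tRNA synthetases, which charge tRNAs for translation, 0 were higher and 5 lower, against 5.02% and 6.41% of all genes, with a median of -0.25. The count of 5 was 3 without siCTRL#1 replicate 4 and 1 without all of replicate 4. They were SARS1, with 153, 136, 119 and 97.2 RPM against 329, 219, 187, 339.9 and 178 (-1.01, adjusted p 0.00011 by limma), YARS1 (-0.90, adjusted p 0.00791), AARS1 (-0.83, adjusted p 0.00654), GARS1 (-0.76, adjusted p 0.0258) and WARS1 (-0.71, adjusted p 0.00603). SARS1 and WARS1 fell without overlap, and all but SARS1 lost the call without replicate 4. AARS1 and GARS1 also lost it without the replicate block. Endoplasmic reticulum chaperones and other genes of the unfolded protein response had few calls, with 0 higher and 1 lower of 23 (4.35% lower, against 5.02% and 6.41% of all genes) and a median of -0.08. Of these 23 genes 5 lay above and 3 below the range of the control libraries (8.82% and 9.24% of all genes). At an unadjusted p under 0.05 there were 5 higher and 4 lower, where all 12627 genes had 1768 and 1787. Both are larger shares than those of all genes. The 1 called gene was HERPUD1, a factor of protein degradation at that membrane (-0.73, adjusted p 0.0249 by limma). It was not called without siCTRL#1 replicate 4, without replicate 1, without replicate 4 or without the replicate block.

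The ESCRT machinery itself stayed near its control level in the median. Against 5.02% and 6.41% of all genes, of 18 genes of ESCRT-III and of VPS4 cofactors 1 was higher and 1 lower (5.56% each), with a median of 0.06, and of 17 genes of ESCRT-0, -I and -II 0 were higher and 1 lower (5.88%), with a median of 0.04. CHMP1B, an ESCRT-III subunit, rose from 107, 89.2, 76.5, 107 and 96.02 RPM to 179.6, 155, 143 and 198 (0.81, adjusted p 0.000124 by limma). LEMD2, the nuclear envelope adaptor of ESCRT-III, fell from 36.3, 38.99, 36.5, 33.4 and 37.1 to 25.1, 19.7, 24.2 and 16.02 (-0.77, adjusted p 0.000145). CEP55, which brings ESCRT to the midbody of dividing cells, fell from 52.7, 47.0, 65.7, 58.8 and 61.1 to 23.2, 25.9, 37.3 and 33.3 (-0.99, adjusted p 0.00124). These 3 changed by less than 2-fold, without overlap. In the ESCRT-III list 4 of 18 members lay above and 2 below the range of the control libraries, against 8.82% and 9.24% of all genes, and at an unadjusted p under 0.05 there were 4 higher and 2 lower, where all 12627 genes had 1768 and 1787.

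Some genes of the lysosome rose slightly. Of 32 members 6 were higher and 0 lower, against 5.02% and 6.41% of all genes, with a median of 0.20 by limma. Their sum went from 4173 to 4594 in siCTRL#1 libraries to 5165 to 5538 in siVPS4B#1 libraries. The protease CTSD had 502, 466, 525 and 464 RPM against 325, 275, 378, 293 and 299 (0.64, adjusted p 0.00262). The lysosomal transcription factors TFEB (0.81, adjusted p 0.00837) and TFE3 (0.62, adjusted p 0.00812) and the proton pump subunits ATP6V0D1 (0.74, adjusted p 0.0106) and ATP6V0A1 (0.71, adjusted p 0.00229) rose too. These 5 were above the control range in each library. The count was 3 without replicate 3. TFEB lost its call without replicate 3, TFE3 without replicate 1 or 3, ATP6V0D1 without replicate 1, 3 or 4 and ATP6V0A1 without replicate 4.

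Amino acid sensing to mTORC1, the kinase complex that reads nutrient supply at the lysosome, had 2 higher and 1 lower of 33 members (6.06% and 3.03%, against 5.02% and 6.41% of all genes) and a median of 0.05. As a list it was thus at the share of all genes. SESN3, of the sestrin family of leucine-responsive inhibitors, rose from 2.34, 4.90, 2.03, 2.87 and 4.80 RPM to 6.66, 8.12, 7.08 and 10.5 (1.23, adjusted p 0.000381 by limma). CASTOR1, the arginine sensor, also rose (1.14, adjusted p 2.43e-05). MLST8, a subunit of the complex, fell from 59.2, 53.5, 69.95, 70.2 and 61.9 to 47.2, 41.7, 51.4 and 34.03 (-0.60, adjusted p 0.0118). This small change was not called without replicate 3, 4 or 5, without siCTRL#1 replicate 4, without the replicate block or with the compared conditions only.

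Some interferon-stimulated genes rose from low or moderate levels. Of 31 members 8 were higher and 0 lower by limma, against 5.02% and 6.41% of all genes, with a median of 0.22. The ubiquitin-like protein ISG15 had 251, 219.6, 244 and 231 RPM with siVPS4B#1 and 143, 90.2, 189, 129 and 95.6 with siCTRL#1 (0.86, adjusted p 0.00159). IRF9, the DNA-binding subunit of the interferon-activated factor ISGF3, had 23.01, 20.98, 14.95 and 20.9 against 4.01, 12.2, 9.29, 7.32 and 12.1 (1.28, adjusted p 0.000581). BST2 (tetherin), which holds budding viruses at the surface, had 35.3, 19.4, 9.35 and 22.2 against 12.7, 6.46, 3.38, 13.6 and 6.87 (1.25, adjusted p 0.00647). ISG15 and IRF9 were separated, whereas BST2 overlapped and was not called without replicate 1 or without the replicate block. IFI35, an interferon-induced leucine zipper protein (0.87, adjusted p 0.00402), the membrane protein IFITM3 (0.81, adjusted p 0.0116) and the ubiquitin ligase HERC6 (0.79, adjusted p 0.0105) were modest. IFI35 lost its call without replicate 3, IFITM3 without replicate 1, and HERC6 without siCTRL#1 replicate 4, without replicate 3 or without replicate 4. The summed list rose from 726 to 765 in siCTRL#1 libraries to 968 to 1089.97 with the duplex.

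Sterol and fatty acid synthesis had 4 higher and 0 lower of 33 (against 5.02% and 6.41% of all genes) and a median of 0.24 by limma. The desaturase SCD, one of the most abundant transcripts, had 7487, 8409.8, 7952 and 6304 RPM against 3336, 4359, 5010.5, 3242 and 4672 (0.90, adjusted p 0.000257). It nearly doubled without overlap. The sterol oxidase MSMO1 rose too (0.78, adjusted p 0.0413) but was not called without siCTRL#1 replicate 4, without replicate 1, 3 or 4, without the replicate block or by DESeq2.

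Targets of p53, the factor of the DNA damage response, had 2 higher and 4 lower of 29 (6.90% and 13.8%, against 5.02% and 6.41% of all genes) and a median of -0.07. The cell cycle inhibitor CDKN1A (p21) rose from 632, 756, 836, 598 and 721 RPM to 1142, 1162, 1280.5 and 1132 (0.80, adjusted p 0.0015 by limma), and the decoy death receptor TNFRSF10D rose (0.68, adjusted p 0.000494), a call lost without replicate 4. The repair factor DDB2 (-0.90, adjusted p 0.0162), the death receptor TNFRSF10B (-0.73, adjusted p 0.00293), the phosphatase PPM1D (-0.70, adjusted p 0.000563) and the nuclease AEN (-0.64, adjusted p 0.000931) fell. These genes moved in both directions. DDB2 lost its call without replicate 1, 3 or 4 and AEN without replicate 4. Of 30 genes of apoptosis and the BCL2 family 1 was higher and 2 lower (3.33% and 6.67%, near the 5.02% and 6.41% of all genes, median 0.03): the effector BAK1 rose (0.76, adjusted p 0.000426), and the survival genes BCL2 (-1.04, adjusted p 0.00163) and BCL2L1 (-0.68, adjusted p 0.000211) fell. BCL2L1 had 365, 383, 445 and 458 against 659, 662, 654, 697 and 687 and BCL2 was low throughout, with 1.67, 0.967, 1.20 and 0.770 against 4.85, 4.07, 3.21, 1.72 and 3.01.

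Calls among inflammatory and redox targets were 0 of 29 and 3 of 25. Of 29 targets of NF-kB limma called 0 higher and 0 lower (5.02% and 6.41% of all genes), with a median of -0.03, and at an unadjusted p under 0.05 there were 1 and 2, where all 12627 genes had 1768 and 1787. The NF-kB subunit NFKB2 had 233, 206, 209.8 and 199 RPM against 147, 203, 115, 149.7 and 190.0 (0.38, adjusted p 0.443), and the survival gene IER3 had 1569, 1642, 1156 and 1659 against 1297, 1447, 1028, 1271 and 1488 (0.24, adjusted p 0.408). Both overlapped between the conditions. Of 25 targets of the redox factor NRF2 2 were higher and 1 lower (8% and 4%, near the 5.02% and 6.41% of all genes, median -0.09), with the exporter ABCC2 (1.04, adjusted p 0.000273) and the reductase AKR1C3 (0.85, adjusted p 0.00309) rising and the NRF2-list member SLC7A11 falling.

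Immediate-early and AP-1 genes had 4 higher and 4 lower of 27 (against 5.02% and 6.41% of all genes) and a median of 0.24 by limma. MYC, the growth-promoting transcription factor, had 243, 194, 130.2 and 146 RPM against 432, 338, 234, 443 and 313, lower at each replicate number though the ranges overlap (-1.005, adjusted p 1.21e-05). The stress factor ATF3 had 13.5, 7.44, 11.5 and 7.55 against 26.4, 27.5, 21.3, 31.3 and 22.7 (-1.41, adjusted p 0.00467), without overlap, but lost its call without replicate 4. The matricellular protein CCN2 fell without overlap (-1.23, adjusted p 4.93e-05) and the transcription factor KLF4 with it (-0.80, adjusted p 0.00163). The phosphatase DUSP4 had 306, 347, 296 and 306 against 156, 180.1, 175, 144 and 175 (0.95, adjusted p 1.4e-05) and rose cleanly. EGR2, a zinc finger factor at a low level, rose (0.90, adjusted p 0.00612) but lost the call without replicate 4 and without the replicate block. Calls were thus split, but 17 members were higher in all 4 pairs and 4 lower (63.0% and 14.8%, against 21.2% and 20.2% of all genes). These pairs are by replicate number, and libraries numbered 4 showed no pairing. Above the range of all controls lay 3 members and below it 2, against 8.82% and 9.24% of all genes. The count of members called higher was 2 without replicate 4 and 7 without replicate 2.

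Of 18 Wnt targets 0 were higher and 4 lower, against 5.02% and 6.41% of all genes, with a median of -0.13 by limma. Beside MYC these were the Wnt inhibitor NKD2 (-0.81, adjusted p 0.00464), the transcription factor SOX4 (-0.80, adjusted p 0.0321) and the ephrin receptor EPHB2 (-0.65, adjusted p 0.00152). Of these EPHB2 alone fell without overlap, and SOX4 was not called without siCTRL#1 replicate 4, without replicate 1, 3 or 4 or without the replicate block. Hypoxia and glycolysis genes had 0 higher and 0 lower of 30 (5.02% and 6.41% of all genes) and a median of 0.19, with 8 and 1 at an unadjusted p under 0.05, where all 12627 genes had 1768 and 1787. The 8 are a larger share than that of all genes, though none passed both the fold change and the adjusted p needed for a call. GAPDH and ENO1, abundant glycolytic enzymes, were at 0.25 (adjusted p 0.406) and 0.46 (adjusted p 0.0315). The RNA interference machinery had 0 and 0 of 13 and a median of -0.13, with 0 and 4 at an unadjusted p under 0.05, the 4 again a larger share than that of all genes. Its slicer AGO2 was at -0.34 (adjusted p 0.156) and the dsRNA-binding cofactor PRKRA at -0.13 (adjusted p 0.757). Of 51 cytosolic ribosomal proteins 0 were higher and 1 lower (1.96%, fewer than the 6.41% of all genes), with a median of 0.03. That 1 was RPS19, a small-subunit protein, with 2045, 1470.3, 2017 and 1309.7 against 4812, 2354, 4195, 4726 and 2583 (-1.15, adjusted p 0.00177), and without replicate 4 it was not called (-0.92, adjusted p 0.0721).

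The other VPS4B duplex lowered the same target, and many of these changes were not called with it against siCTRL#2 or NT. No fit of siVPS4B#2 against siCTRL#1 was made, and the paper used NT and siCTRL#1 as controls in its downstream analysis. The non-targeting duplexes differed, with 654 genes higher (5.18%) and 1292 lower (10.2%) in siCTRL#2 than in siCTRL#1 cells. The comparison with siCTRL#2 below thus differs from the main one in its control as well as its duplex. In siVPS4B#2 cells VPS4B fell against siCTRL#2 (-3.95, adjusted p 5.12e-10 by limma). Its mean was 5.18% of the siCTRL#1 level (36 reads) with siVPS4B#2 and 2.09% (14 reads) with siVPS4B#1, and siCTRL#2 itself was at 154% of siCTRL#1. The added 1 draws both fold changes toward 0. On that scale, the direct test between the 2 duplexes gave -0.54 (adjusted p 0.338). The comparison of siVPS4B#2 with siCTRL#2 shares no library with the main one, with 4 of each condition. It had 1463 higher genes (11.6% of all) and 1027 lower (8.13%). Of the 634 genes higher with siVPS4B#1 126 were higher there too (19.9%, and 8.61% of the 1463), and 106 were lower. Of the 810 lower genes 74 were lower there (9.14%, and 7.21% of the 1027), and 107 were higher. The median log2 fold change with siVPS4B#2 was 0.02 over the former and 0.00 over the latter genes. With NT in place of siCTRL#2, a choice made after the data were seen, siVPS4B#2 had 831 higher genes (6.58%) and 905 lower (7.17%), of which 128 and 136 were shared with siVPS4B#1 (20.2% and 16.8% of its lists, 15.4% and 15.03% of the others). Of the higher and lower genes of siVPS4B#1, 58 and 22 were called the opposite way there, and the medians were 0.14 and -0.21.

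Tested directly against siVPS4B#2, siVPS4B#1 had 895 higher genes (7.09%) and 786 lower (6.22%). Without replicate 1 the 895 became 581. This test uses the same siVPS4B#1 libraries as the comparison with siCTRL#1, so no overlap of the 2 is given. VGF (-0.49 with siVPS4B#2 against siCTRL#2, 2.34 between the duplexes, adjusted p 3.17e-07 by limma), WWTR1 (-0.53, 1.34, 2.48e-08) and NT5E (-1.45, 2.39, 1.69e-06) differed between them. UBE2S (-0.42, -2.15, 2.19e-10), UNG (-0.08, -1.78, 2.73e-10), KLC2 (0.72, -2.18, 2.49e-06) and TRIR (0.02, -1.90, 1.33e-09) did as well. VGF was nevertheless higher in siVPS4B#2 than in siCTRL#1 libraries, with 40.1 to 71.7 RPM against 16.2 to 27.1, and was at 0.67 against NT (adjusted p 0.0992). TRIR had means of 355 RPM in NT, 315 in siCTRL#2 and 318 in siVPS4B#2 cells, and only siVPS4A+B#1, the other condition with this duplex, was low with 113. ASNS fell with both duplexes (-1.32 with siVPS4B#2), and the direct test gave -0.62 (adjusted p 0.136). NES rose with both (1.72, and 0.41 between them, adjusted p 0.128), as did MT1E (2.05).

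By list, the response to siVPS4B#2 depended in part on its control. Of 49 replication members siVPS4B#2 had 8 higher (11.6% of all genes) and 1 lower (8.13%) against siCTRL#2 (median 0.16), but 0 higher (6.58%) and 10 lower (7.17%) against NT (median -0.24). Between the duplexes 0 were higher (7.09%) and 33 lower (6.22%). Histones had 6 higher and 0 lower of 39 against siCTRL#2, where they were already low, 3 and 24 against NT (median -0.83), and 16 lower between the duplexes. Mitosis had 0 and 6 of 34 against siCTRL#2, 0 and 4 against NT, and 17 lower between the duplexes. The ATF4 targets had 1 higher and 4 lower of 33 against siCTRL#2 and 0 and 15 against NT (median -0.63), and the direct test called only 1 lower and 0 higher. For that list a difference between the duplexes was called in 1 gene alone. Interferon-stimulated genes had 12 higher and 0 lower of 31 with siVPS4B#2 against siCTRL#2 and 11 and 0 against NT. Which changes follow from loss of VPS4B and which from other effects of a duplex cannot be told apart with 2 duplexes that differ.

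With the same duplex given on top of siVPS4A#2, many of the same genes were called the same way. These 8 libraries share none with the main comparison. Both paralogs were then silenced, and the paper reports cell cycle arrest and cell death when both proteins are depleted. Which of these calls go with the duplex and which with the loss of both paralogs was not tested. In these libraries siVPS4A+B#1 cells lost VPS4B against siVPS4A#2 cells (-3.74, adjusted p 2.57e-09 by limma). VPS4A was higher (1.15, adjusted p 0.00347), with means of 7.83 and 20.1 RPM. In this comparison 1471 genes were higher (11.6%) and 1338 lower (10.6%), a balance that depends on the scaling, since the library total gave 968 and 1980. They included 367 of the 634 higher genes (57.9%, and 24.9% of the 1471) and 558 of the 810 lower genes (68.9%, and 41.7% of the 1338), while 1 and 4 went the opposite way. Median log2 fold changes there were 0.72 and -0.80 for the 2 groups. UBE2S (-2.58), UNG (-2.07), H2AX (-2.41), KLC2 (-1.59) and TRIR (-1.44) fell, and VGF (3.17), HYAL1 (2.78), NT5E (3.52) and WWTR1 (1.94) rose. Replication (1 higher, 45 lower of 49), mitosis (0, 29 of 34) and histones (1, 35 of 39) were lower with the other VPS4 paralog silenced too, against 11.6% and 10.6% of all genes. ATF4 targets had 4 higher and 14 lower of 33.

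Low replication, mitosis and histone mRNA was not limited to cells with this duplex, but not every VPS4 duplex had it. The mean of the list medians, taken from the siCTRL#1 level, was -0.89 for replication, -0.99 for mitosis and -0.93 for histones in siVPS4B#1 libraries. In siVPS4A#1 libraries, leaving aside replicate 2 with its low VPS4B, the list medians of single libraries were -0.98 to -1.68, -1.53 to -2.35 and -1.20 to -1.98. The mean in siVPS4A+B#2 libraries was -0.82, -1.41 and -1.30. Neither siVPS4A#1 nor siVPS4A+B#2 cells received siVPS4B#1, and the difference between these conditions and siVPS4B#1 was not tested. In siVPS4A#2 libraries the mean was 0.18, 0.12 and 0.32, so the VPS4A duplexes differed. In siVPS4B#2 libraries it was -0.17, -0.35 and -0.33.

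Some genes were called in several comparisons. Called in the same direction with siVPS4B#1 alone, with siVPS4B#2 against siCTRL#2 and with siVPS4B#1 on top of siVPS4A#2 were 73 higher and 43 lower genes. The share of the lower genes that were also lower with siVPS4B#2, 9.14%, was near the 8.13% of all genes. The 43 are therefore not read as a response shared by the duplexes. With NT as the control that share was 16.8%, against 7.17%. Of the higher genes 19.9% were also higher with siVPS4B#2 against siCTRL#2, where 11.6% of all genes were. With NT in place of siCTRL#2 the sets called in all 3 were 82 higher and 95 lower genes. Beside VPS4B, HYAL1, ECM1, MT1E, NES, DISP2, CHKA, ASNS and PHGDH, the largest of them included the leukocyte integrin ITGAX, which had 8.33, 7.35, 4.54 and 6.47 RPM against 2.51, 2.75, 1.18, 2.73 and 1.60 (1.27, adjusted p 0.000233 by limma). The neuronal membrane protein NKAIN1 had 1.06, 0.773, 0.801 and 0.308 against 6.36, 4.54, 3.21, 4.59 and 4.61 (-1.72, adjusted p 3.61e-07), and HLF, a PAR-domain transcription factor, had 3.18, 2.03, 1.34 and 1.39 against 5.02, 5.14, 5.74, 6.89 and 4.14 (-1.18, adjusted p 0.000271). All 3 were separated but low. Other genes were called with siVPS4B#1 alone, on top of siVPS4A#2 and against siVPS4B#2, but not with siVPS4B#2 against siCTRL#2. The comparisons with siCTRL#1 and siVPS4B#2 share the siVPS4B#1 libraries, so these genes are no independent set and are not counted here. Beside those already named, they included the skin protease KLK5 (1.51, adjusted p 4.74e-05), the secreted keratinocyte protein DMKN (1.49, adjusted p 5.4e-06) and the atos homolog ATOSB (1.45, adjusted p 4.44e-06). DMKN had 28.5, 31.5, 27.5 and 28.2 against 10.4, 10.5, 7.27, 10.6 and 7.63, another clean shift from low levels.

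**Figure D1:**
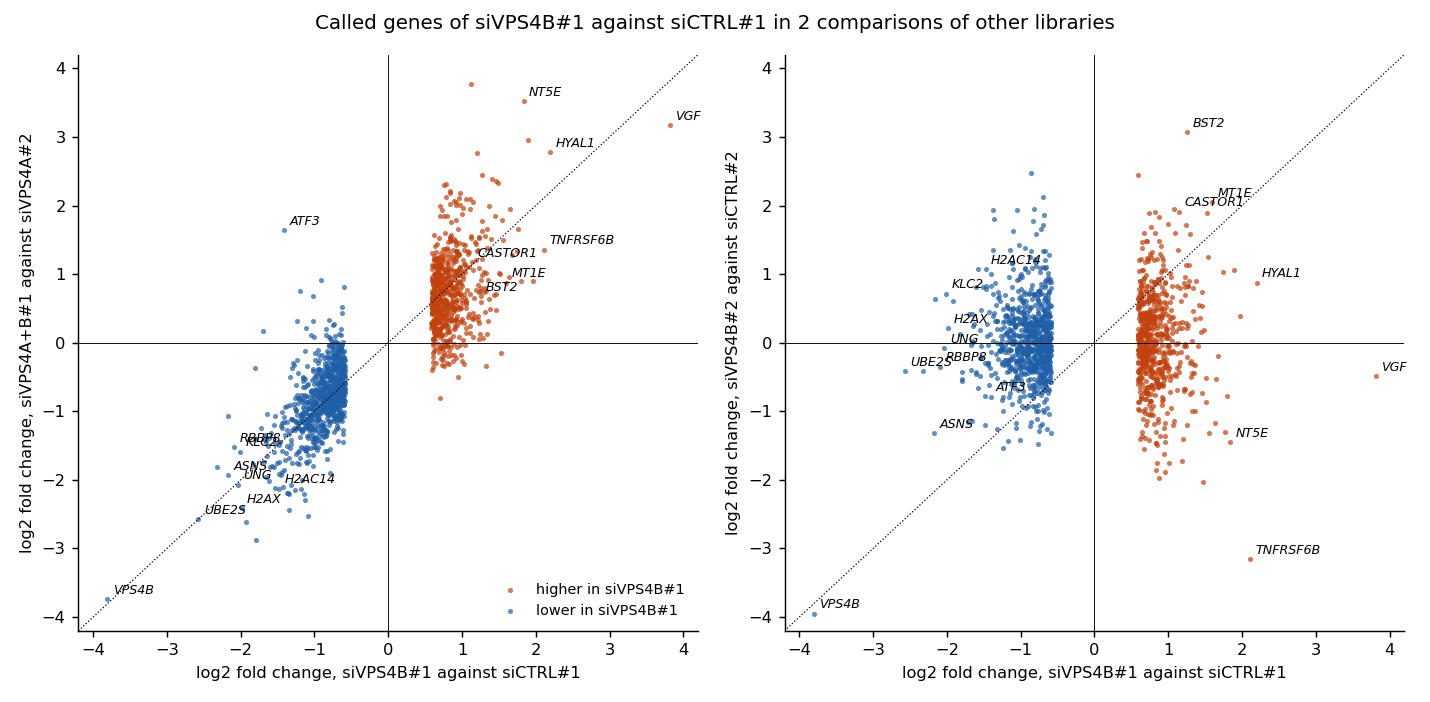
Log2 fold changes of the called genes in 2 comparisons of other libraries, siVPS4A+B#1 against siVPS4A#2 and siVPS4B#2 against siCTRL#2. The dotted line marks equal values.

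Where VPS4A was silenced too, some genes responded to the duplex in another way. The interaction, the effect of siVPS4B#1 on top of siVPS4A#2 minus its effect alone, was called positive for 256 genes (2.03%) and negative for 71 (0.562%). It shares the siVPS4B#1 and siCTRL#1 libraries with the main comparison, so no overlap with it is given. NRF2 and NF-kB targets had large shares. Of NF-kB targets 14 of 29 were positive and 0 negative (48.3%, against 2.03% and 0.562% of all genes). On top of siVPS4A#2 24 were higher and 1 lower, against 11.6% and 10.6% of all genes. NFKB2 was at 0.38 alone and 2.38 on top (interaction 2.00, adjusted p 0.00769 by limma). NRF2 targets had 13 of 25 positive (52%) and 0 negative, with 17 higher on top (11.6% of all genes). AP-1 genes had 11 positive and 1 negative of 27. MYC fell alone and was at 0.08 on top (1.08, 0.00391). The count of interactions moved widely with the libraries used, from 11 positive and 1 negative gene without replicate 3 to 431 and 263 without replicate 2, and 482 and 301 without siVPS4A#1 replicate 2, the library whose VPS4B level does not match its label.

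The choice of control changed the size of the response and part of its content. The comparisons of siVPS4B#1 with NT, siCTRL#2 and siCTRL#1 share the siVPS4B#1 libraries, so their values are given side by side and without overlaps. Against NT siVPS4B#1 had 1283 higher genes (10.2%) and 1378 lower (10.9%), and against siCTRL#2 1602 (12.7%) and 1071 (8.48%). The 2 non-targeting duplexes differed from each other, with 654 genes higher (5.18%) and 1292 lower (10.2%) in siCTRL#2 than in siCTRL#1 cells. TNFRSF6B was higher by 2.02 in siCTRL#2 cells, so that siVPS4B#1 was at 0.09 against that control (adjusted p 0.839 by limma). VGF was 1.97 higher there.

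By list, ATF4 targets had 0 higher (10.2% of all genes) and 22 lower (10.9%) of 33 against NT, 0 (12.7%) and 10 (8.48%) against siCTRL#2, and 0 (5.18%) and 11 lower (10.2%) in siCTRL#2 against siCTRL#1 cells. Mitosis had 29 lower of 34 against NT and 27 against siCTRL#2, and replication 44 and 21 of 49, with 0 higher in each. Mitosis was thus low against each control. Of replication members 1 was higher and 13 lower in siCTRL#2 than in siCTRL#1 cells, against 5.18% and 10.2% of all genes. The count of lower replication genes thus depended in part on the control. Histones had 34 lower of 39 against NT but 2 against siCTRL#2, and 28 were lower in siCTRL#2 than in siCTRL#1 cells. For histones the loss therefore depended on the control.

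Not analysed here were protein levels, splice forms, non-coding RNA and the growth of the cells. The paper reports that viability and colony growth of HCT116 cells were not affected when VPS4B alone was depleted, measured later than the RNA. Lower replication, mitosis and histone mRNA could be compared with cell cycle phase only by other measurements, which the data do not hold.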

How the data were processed

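The authors deposited a signal for each gene and library, the share of the library's reads over the listed genes, and not counts. Reads were recovered from the step of the low values, with 49.3% of values precise enough to judge and 100% of these whole within 0.1 reads. For siVPS4B#1 replicate 2 and siCTRL#1 replicate 5 the claim of whole reads was not checked by code outside this work. Upstream, the authors used TMAP for alignment to the hg19 panel, HTSeq 0.6.0 for counts and DESeq2 1.18.1 for tests. All 38 columns belong to a sample.

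Because the values are normalized, limma 3.58.1 in R 4.3.3 was applied to log2 values of TMM-scaled RPM plus 1, with 9 conditions, the replicate number as a block and an intensity trend in the variance. The block was kept because the labels give the number as a batch. Residuals of siVPS4B#1 and siCTRL#1 libraries of the same number had correlations of 0.375, 0.338, 0.470 and -0.0814, so replicate 4 showed no pairing. The residuals of siCTRL#1 replicate 4 had a mean correlation of 0.263 with libraries of number 1 and -0.171 with those of number 4. For siCTRL#1 replicate 5 it was 0.225 with those of number 4 and 0.200 with the 1 other library of number 5. Replicate 4 with siVPS4B#1 had 0.205 with siCTRL#1 replicate 5 and a mean of -0.00264 with libraries of number 4. Whether numbers 4 and 5 of siCTRL#1 name the batches rightly cannot be told, and no block with other numbers was fitted. Count tests were run as alternatives: DESeq2 1.42.0 called 727 genes higher and 1003 lower and edgeR 4.0.16 called 743 and 981. Python 3.11.15, numpy 2.4.6, pandas 2.3.3, scipy 1.17.1 and matplotlib 3.10.9 made the summaries.

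Symbols were found for 12474 genes. The 23 lists held 694 symbols, of which 630 were measured. Named were VPS4B and VPS4A, the 15 largest changes per direction without overlap at 5 or more RPM, up to 6 called members of each list or up to 2 abundant ones, and the 6 largest per direction of the 2 sets called in several comparisons, 116 genes in all, of which not all are printed. Members and lists were chosen with earlier results of these data known. Promoters of 10206 tested genes were matched by symbol.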

Additional observations from a re-analysis of the deposited data

Results flagged for a closer look

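Dixon's Q test (gap over range of log2 values) was applied to the 4 or 5 libraries of each condition for each of the 116 named genes. Of the 232 groups 9 held an outlying value (3.88%), at a 5% level that gives about 1 in 20 by chance, so their number is not above chance. In siVPS4B#1 cells, VGF had 523 RPM in replicate 4 against 216 to 234 in the others, WWTR1 269 in replicate 2 against 296 to 297, and NUPR1 6.51 in replicate 1 against 0.534 to 0.870. ASNS had 112 in replicate 1 against 29.6 to 33.2, MCM2 5.85 in replicate 4 against 10.9 to 12.2, IER3 1156 in replicate 3 against 1569 to 1659, and EGR2 2.00 in replicate 3 against 5.90 to 6.36. In siCTRL#1 cells, replicate 3 had 743 for UBE2S against 444 to 515 and 400 for H2AC14 against 265 to 282. Only WWTR1 was off by little.

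The effect of siVPS4B#1 differed with siVPS4A#2 for 7 of 116 named genes by limma (all genes: 2.03% positive, 0.562% negative), with p adjusted by the Benjamini-Hochberg method. Most named genes were chosen from the main comparison, which shares libraries with this test. NT5E rose by 1.83 alone and 3.52 on top (interaction 1.68, adjusted p 0.0368), and CDKN1A by 0.80 and 1.84 (1.04, 0.021). NFKB2 was at 0.38 and 2.38 (2.00, 0.00769) and ATF3 at -1.41 and 1.64 (3.05, 0.000806). TNFRSF10B was at -0.73 and 0.27 (1.00, 0.0226), MYC at -1.005 and 0.08 (1.08, 0.00391) and KLF4 at -0.80 and 0.32 (1.12, 0.0126). The cause of these differences was not tested.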

How the results depend on the processing

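Each of 8 comparisons was refitted under 15 alternatives. For siVPS4B#1 against siCTRL#1 they gave 438 to 766 higher and 585 to 1003 lower genes, and scaling by the library total 563 and 879. Of 109 named genes called, 86 were called in every alternative, and MLST8 and MSMO1 lost the call in 6, SOX4 in 5, GARS1 and HERPUD1 in 4. The sign changed for 2 uncalled genes: VPS4A (0.05) was at -0.0313 without replicate 3 and -0.0327 without replicate 4, with a highest value of 0.14. PRKRA (-0.13) was at 0.00994 without replicate 4 and ranged from there to -0.25.

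Leaving out 1 replicate number gave 26 to 29 lower mitosis genes, 37 to 42 replication genes, 24 to 33 histones and 14 to 25 ATF4 targets. The same fits gave 1 to 5 lower aminoacyl-tRNA synthetases, 6 to 9 higher interferon-stimulated genes and 3 to 6 higher lysosome genes (7 without siVPS4A#1 replicate 2). The difference of VPS4B by the exact permutation test was -4.02 to -3.86, but 3 and 4 libraries allow no p below 0.0571. Against siVPS4B#2 there were 581 to 907 higher genes, and 996 without siVPS4A#1 replicate 2.

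Without the replicate block siVPS4B#1 against siCTRL#1 had 558 higher and 742 lower genes, 20 lower ATF4 targets and 3 lower aminoacyl-tRNA synthetases, and 3 were also left without siCTRL#1 replicate 4.

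Scaling by the library total gave 968 higher and 1980 lower genes for siVPS4A+B#1 against siVPS4A#2. NT in place of siCTRL#2, chosen after seeing the data, gave 831 higher genes for siVPS4B#2.

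The interaction was the least stable result. Positive genes numbered 169 without the block, 160 with the library total, 443 with the compared conditions only, 394 by DESeq2 and 482 without siVPS4A#1 replicate 2, a library of 669257 reads whose low VPS4B level (1.62 RPM) goes against its label. They were 50, 431, 11 and 28 without replicates 1, 2, 3 and 4. Negative genes numbered 30 without the block, 246 with the compared conditions only, 265 by DESeq2, 142 by edgeR and 301 without siVPS4A#1 replicate 2. They were 6, 263, 1, 1 and 43 without replicates 1 to 5. The cause was not tested.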
